A study of Drosophila melanogaster with 4 samples.

Results

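A set of 486 solitary H3K4me3 peaks of medium width was described in embryos of Drosophila melanogaster collected whole at 8 to 16 h. The peaks were chosen by their width and by the gaps to their neighbours in 1 deposited peak list, which holds 7425 peaks. A member lies on 1 of the 6 chromosome arms 2L, 2R, 3L, 3R, 4 and X, is at least 1 kb and under 4 kb wide (written 1 to 4 kb below), and has a gap of at least 5 kb and under 100 kb on each side to the next peak of any width. The arms held 6715 peaks, of which 3418 were 1 to 4 kb wide. The members were 14.2% of the peaks of that width and 7.24% of all arm peaks, and they covered 869 kb, or 7.60% of the covered length of the arms. The width range resembles that of a marked promoter, but no start site was assigned to any peak, so the name promoter-sized refers to width alone.

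H3K4me3 is histone H3 with 3 methyl groups on lysine 4. In flies the bulk of it is laid down by the Set1 methyltransferase complex, and Trithorax and Trithorax-related are related enzymes. The mark is usually densest on the nucleosomes just downstream of the start sites of active genes, where it is read by proteins that recruit the transcription machinery and chromatin remodellers. Fly genes are often packed closely or transcribed away from a shared region, so marked regions can lie side by side.

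The series holds 2 libraries precipitated with a rabbit polyclonal antibody against H3K4me3 and 2 libraries of input DNA. All 4 came from the same strain, labelled Y cn bw sp. Its genotype has y[1] with oc[R3.2] in the first group of alleles. The second has Gr22b[1], Gr22d[1] and cn[1], followed by CG33964[R4.2] with bw[1] and sp[1]. The last has LysC[1], lab[R4.2] and MstProx[1], then GstD5[1] and Rh6[1]. Cross-linking was in 1.8% formaldehyde for 15 min, per the labels' protocols. Whole embryos mix all cell types, and a collection window of this length mixes stages, so a peak may be marked in few or many cells.

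The list gives each peak a position on FlyBase release 5 and the authors' own score. What scale that score has is not given in the sources read for it, so scores were compared only within this list, and their ranks bear more weight than their sizes. No peak can be tied to a library, so a spread between replicates cannot be given for any value. Library depth was not examined and is unknown here. Width, gaps and score come from the same comparison of antibody with input DNA, so every value of the members is a description and none was tested. Intervals given for shares are exact Clopper-Pearson 95% intervals, which treat peaks as independent and cover counting error only.

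The solitary peaks had gaps well above the lower limit. The smaller of a member's 2 gaps had a median of 11492 bp, with quartiles of 7806 and 19751 bp. The larger had a median of 32873 bp, with quartiles of 18240 and 54497 bp. The gaps to the left and to the right were alike, with medians of 19091 and 18855 bp. For 197 members, or 40.5%, the smaller gap was under 10 kb, and for 26 members, or 5.35%, it was 50 kb or more. Among the 2932 other peaks of 1 to 4 kb the median smaller gap was 291 bp. The typical peak of this width therefore had its nearest neighbour closer than its own length.

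The other peaks missed the rule in 4 ways. In 1283 of them both gaps were under 5 kb, which is 37.5% of all peaks of this width. In 1358, or 39.7%, 1 gap was under 5 kb and the other lay within the rule. A further 144 had 1 gap under 5 kb and the other over the upper limit or at an arm end. The last 147 had no gap under 5 kb and were left out only for a gap of 100 kb or more or for a place at an arm end.

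Solitary peaks were narrower than the other peaks of the same range. Their median width was 1612 bp, with quartiles of 1237 and 2146 bp and extremes of 1005 and 3990 bp. The median of the others was 1884 bp, with quartiles of 1408 and 2543 bp. A width of 1 to 1.5 kb was found in 43.2% of members and in 30.6% of the others, and a width of 3 kb or more in 33 members against 414 others. A randomly taken member was wider than a randomly taken other peak in 39.9% of all such pairs, where 50% would mean no shift. Wide regions were also scarce when the gap limits alone were applied. Of 894 arm peaks of any width with gaps of 5 to 100 kb on both sides, 39 were 4 kb or wider, or 4.36% (3.12 to 5.92). Of the 5821 arm peaks with other gaps, 504 were that wide, or 8.66% (7.95 to 9.41).

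Narrow peaks were split in the same comparison. Peaks under 500 bp made up 17.7% (15.2 to 20.3) of the peaks with gaps of 5 to 100 kb on both sides and 23.2% (22.1 to 24.3) of those with other gaps. Peaks of 0.5 to 1 kb made up 23.6% (20.9 to 26.5) and 17.8% (16.8 to 18.8). The 486 members were 54.4% of the peaks set apart by their gaps, close to the 50.4% that peaks of 1 to 4 kb made up among the rest.

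In the list as deposited, solitary peaks had a lower median score than the other peaks of 1 to 4 kb (a difference of -53.5). They were also narrower, and the difference was smaller within width classes, by an amount that depended on the measure. The scores of the members ran from 13.77 to 501.38, with a median of 152.4 and quartiles of 83.6 and 255.2. The others ran from 11.15 to 570.4, with a median of 205.9 and quartiles of 125.1 and 282.7. The 2 ranges overlap almost completely, and the difference lies in how the peaks are spread over them. The median member stood at the 58.1 percentile of all arm peaks by score, and the median other peak at the 67.7 percentile. A member outscored an other peak in 40.9% of pairs. Within width classes of 500 bp the share was 45.2%, a mean over the classes weighted by their numbers of members. The difference in medians within such classes, solitary minus other, was -13.9 as the same weighted mean. Without width classes it was -26.1 and -12.8 after merging of peaks closer than 500 and 1000 bp. Without the lowest 50% of peaks by score it was 3, but that cut acts on score in both sets and changes the members.

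Members had a larger share of low scores and a smaller share of high ones. Scores under 64 were found in 79 members, or 16.3% (13.1 to 19.8), and in 280 others, or 9.55% (8.51 to 10.7). Scores of 256 or more were found in 121 members, or 24.9% (21.1 to 29.0), and in 978 others, or 33.4% (31.6 to 35.1). Between these limits, 16.0% of members and 9.65% of others scored 90.5 to 128, while 16.9% of members and 24.7% of others scored 181 to 256. The lowest member lay above the single mitochondrial peak of the list, which scored 11.05 on DNA without histones. No member and no other peak of this width scored at or below that value, whereas 827 of all arm peaks did. A single such peak sets no noise level for the arms, and the lowest other peak, at 11.15, was barely above it.

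**Figure D1:**
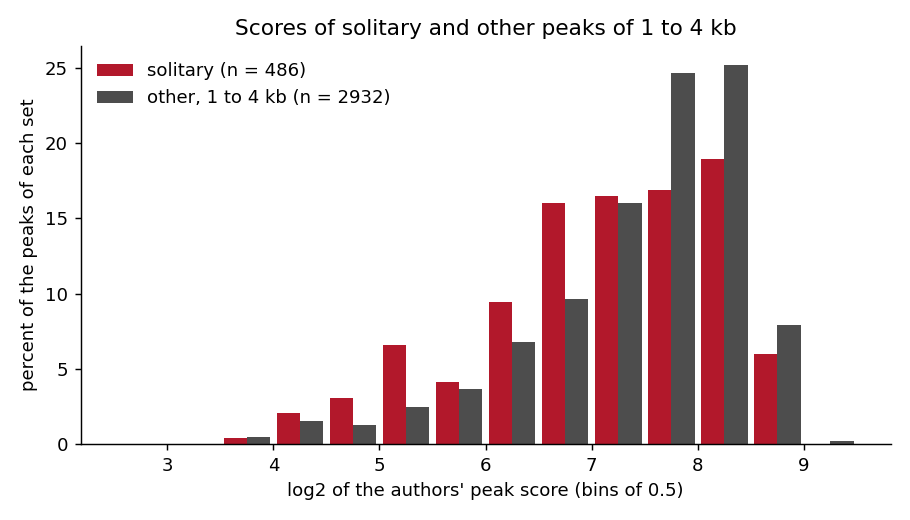
Percent of the 486 solitary peaks (red) and of the 2932 other peaks of 1 to 4 kb (grey) in bins of the log2 of the authors' score, each bin 0.5 wide. Members are the larger share in most bins below a log2 score of 7.5 (a score of 181), and the others are the larger share in each bin above it.

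Within width classes the scores of the 2 sets lay close together. Among peaks of 1 to 1.5 kb the median score was 103.7 for 210 members and 126.7 for 898 others, and a member was the higher in 41.5% of pairs. At 1.5 to 2 kb it was 170.3 for 128 members and 190.0 for 711 others, with 46.1% of pairs. At 2 to 2.5 kb the medians were 248.4 for 76 members and 242.7 for 558 others, with 49.6% of pairs. At 2.5 to 3 kb they were 259.3 and 268.4, with 46.4% of pairs. The 17 members of 3 to 3.5 kb had a median of 294.8 against 258.1 in the others, with 60.9% of pairs, and the 16 members of 3.5 to 4 kb had 265.8 against 271.2, with 47.9%. In all 6 classes the medians differed by less than the distance between the quartiles of either set. The lowest share of pairs was in the narrowest class, and the 2 widest classes rest on few members.

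**Figure D2:**
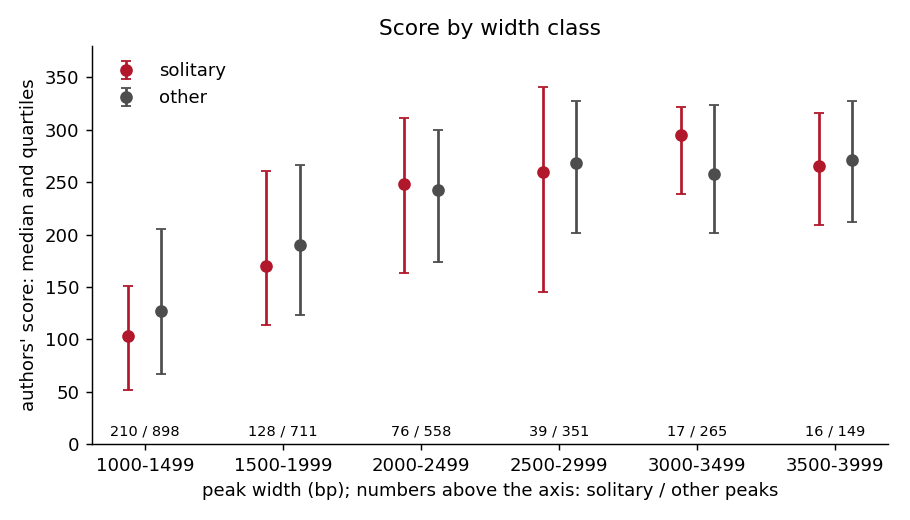
Authors' score (median as point, quartiles as bars) of solitary (red) and other (grey) peaks in 6 width classes, with the numbers of peaks above the axis. Quartile ranges overlap in every class. The medians of members are the lower ones in 4 classes, among them 1 to 1.5 kb (103.7 against 126.7), and the higher ones at 2 to 2.5 kb and at 3 to 3.5 kb.

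Within the members, wider peaks scored higher. Across the 486 members Spearman's rho of width and score was 0.582, and Pearson's r of their log2 values was 0.547. Across the 2932 others the values were 0.478 and 0.485. Both measures come from the same peak call and the same libraries, and the width range was limited by the rule, so these coefficients describe the list only. The score was only weakly related to the degree of isolation by rank. Spearman's rho of the smaller gap and the score was -0.074 across members. The median score was 164.3 for the 197 members with a smaller gap under 10 kb, 152.0 for the 170 members of 10 to 20 kb, 141.9 for the 93 members of 20 to 50 kb and 118.5 for the 26 most separated ones. Their lower quartiles were 96.4, 97.0, 64.1 and 66.6, and the upper quartiles were 274.8, 246.3, 231.2 and 216.6. The quartile ranges of these 4 classes overlap throughout. Median scores fell from class to class, and so did median widths, at 1721, 1547.5, 1541 and 1511.5 bp.

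The classes of other peaks differed in width as well as in score. The 147 peaks that had no gap under 5 kb but were left out for a long gap or an arm end had a median score of 152.4, the same as the members, and a median width of 1567 bp. Peaks with a close neighbour on 1 side had median scores of 205.3 (other gap within the rule, median width 1801 bp) and 211.4 (other gap over the limit or at an arm end, 1807 bp). Those with close neighbours on both sides had 211.5 and 2036 bp. Scores under 64 were found in 7.29% (5.96 to 8.80) of the peaks with 1 close neighbour and the other gap within the rule, and in 11.4% (9.69 to 13.2) of those with 2. The difference in medians within width classes of 500 bp was taken as the same weighted mean, a comparison chosen after seeing the data. Solitary minus other, it was -21.6 against peaks with 1 close neighbour, -6.49 against those with 2 and 19.9 against those with none.

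Solitary peaks had somewhat fewer peaks around them than the others when the nearest stretch was counted. Within 100 kb either side of its midpoint a member had a median of 13 other peaks, with quartiles of 9 and 17.8 and a range from 2 to 42. The others had a median of 15, with quartiles of 10 and 20. The rule itself empties the nearest 5 kb on each side of every member, and it also places at least 1 peak on either side before a gap of 100 kb. Counting only midpoints from 10 to 100 kb away, the medians were 12 for members and 11 for the others, and from 50 to 100 kb they were 6 and 5. Among the others this count includes peaks beside gaps over 100 kb. When these were left out, a choice made after seeing the data, both medians from 10 to 100 kb were 12. From 100 to 200 kb away both medians were 11, on all peaks.

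Counted as groups, with peaks closer than 1000 bp taken as 1, the medians were the same. A member had a median of 7 other groups within 100 kb, with quartiles of 5 and 9, and the other peaks had the same 3 values. A member had more groups in 50.5% of pairs, against 42.2% when single peaks were counted. Without the others beside a gap over 100 kb or an arm end, again chosen after seeing the data, the median of the others was still 7, with quartiles of 5 and 10, and a member had more groups in 46.8% of pairs. In steps of 10 kb, members had a mean of 0.397 other peaks up to 10 kb away and the others 3.10. The next step held 1.58 and 2.05, and from 40 to 50 kb the means were 1.41 and 1.38. Further out the order changed along the way, with 1.43 and 1.16 from 70 to 80 kb and 0.975 and 1.26 from 150 to 160 kb.

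**Figure D3:**
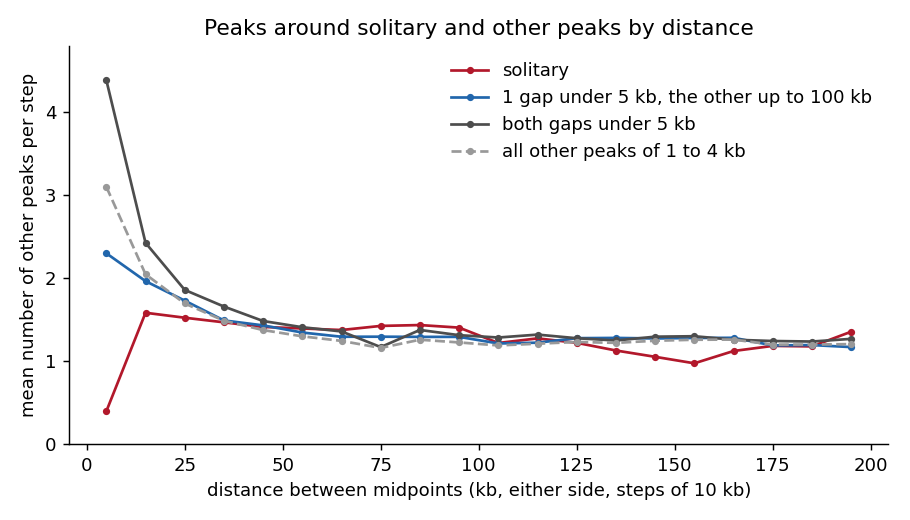
Mean number of other peaks per 10 kb step of distance between midpoints, both sides summed, for solitary peaks (red), peaks with 1 gap under 5 kb (blue), peaks with both gaps under 5 kb (dark grey) and all other peaks of 1 to 4 kb (dashed). The widest separation is in the first step (0.397 for members against 3.10 for all others up to 10 kb). Further out the red curve crosses the others, above them at 70 to 80 kb and below them at 150 to 160 kb. Its values lie between 0.975 and 1.44 from 40 kb on. The rule empties the nearest 5 kb on each side of a member and so sets part of the first step.

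Members occurred in sparse and in crowded surroundings with little change in score. The 36 members with fewer than 5 other peaks within 100 kb had a median score of 160.9. The 118 members with 5 to 9 had 156.9, the 147 members with 10 to 14 had 148.2, the 103 members with 15 to 19 had 142.5 and the 82 members with 20 or more had 161.2. Spearman's rho of this number and the score was 0.004 across members. In each of these 5 classes the others had the higher median, from 175.5 in the sparsest to 214.2 at 10 to 14 peaks.

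In their width classes the peaks next to a solitary peak were much like all arm peaks. Flanking peaks were counted per side, so a peak between neighbouring members was counted for each of them. Some were members themselves, since 193 of the 486 members had a member as the next peak on at least 1 side. Of 972 flanking peaks, 52.7% were 1 to 4 kb wide, 20.4% were 0.5 to 1 kb, 20.6% were under 500 bp and 6.38% were 4 kb or wider. Over all arm peaks these shares were 50.9%, 18.6%, 22.5% and 8.09%. A median flanking peak was 1227 bp wide and scored 95.6, below the median member in both. The same held for the other peaks of 1 to 4 kb, whose flanking peaks had medians of 1280 bp and 110.8, and flanking peaks may be of any width. In 43.2% of cases (38.8 to 47.7) the member outscored both of its neighbours, and in 18.3% (15.0 to 22.0) it scored below both. For the other peaks of this width these shares were 47.6% and 13.3%. A further peak lay less than 1 kb away on the far side of 40.8% of the members' flanking peaks. For the flanking peaks of the others this share was 45.0%, and 46.3% of all neighbouring peaks on the arms were that close.

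A broad domain was less often close to a solitary peak than to the other peaks. The nearest peak of 4 kb or wider was at a median distance of 68.3 kb from 475 members, with quartiles of 29.7 and 165.5 kb. For 2896 other peaks the median was 50.4 kb, with quartiles of 9.34 and 169.2 kb. Chromosome 4 had no such peak and is not in these numbers. A broad domain lay within 20 kb of 16.4% of members and of 35.3% of the others. The rule keeps every peak at least 5 kb from a member, and how much of this difference it sets was not measured. The 10th percentile of the distance was 12.2 kb for members and 0.707 kb for the others. Among flanking peaks, 6.38% were 4 kb or wider beside members and 7.84% beside the others.

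Some solitary peaks stood next to another one. The gap between neighbours counts for both, so a peak beside a member already met the gap limits on that side. Members were 7.24% of all arm peaks, and how often other peaks stand beside a member was not computed. Of the 486 members, 193, or 39.7%, had a member as the next peak on at least 1 side. They formed 59 rows of 2, 15 rows of 3, 5 rows of 4 and 2 rows of 5 consecutive members, and the other 293 stood between peaks that were not members. The longest rows began at 2R 402619 and at 3R 20543177. The 2R row ended at 561076 and spanned 158.5 kb, with scores from 156.94 to 391.45. The 3R row ended at 20631089 and spanned 87.9 kb, with lower scores of 49.04 to 231.23. A row of 4 on 3L from 8759697 to 8907037 held weak peaks only, at 36.77 to 87.96, so the rows differed in level. Scores could also differ within a row, as in the 2R row. These rows were picked after their values were seen. Members were found in all but 8 of 123 bins of 1 Mb, with a median of 3 per bin and a highest count of 12 on 2R from 18 to 19 Mb.

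The arms differed in how many of their medium-width peaks were solitary. The share was 18.3% on 2R (120 of 657, 15.4 to 21.4), 15.9% on 3L (106 of 665, 13.2 to 18.9) and 13.5% on 3R (110 of 813, 11.3 to 16.1). It was lower on 2L, with 11.5% (67 of 581, 9.05 to 14.4), and on X, with 11.0% (72 of 655, 8.70 to 13.6). Chromosome 4, a dot chromosome that is small and rich in heterochromatin, had 23.4% (11 of 47), with a wide interval of 12.3 to 38.0. Per Mb from the first to the last peak, members numbered 5.68 on 2R, 4.32 on 3L, 3.94 on 3R, 3.22 on X and 2.92 on 2L, and chromosome 4 had the highest number, at 8.53. Peaks are not independent along an arm, so these intervals are too narrow for a comparison of arms.

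X and 2L kept the lowest shares among the 6 arms under 5 other settings. With gaps of at least 3 kb they had 15.3% and 16.9%, where the other arms had 17.0% or more. At 10 kb they had 5.80% and 7.75%, with the others at 8.98% or more, and without an upper limit 15.0% and 16.9%, with the others at 17.6% or more. After removal of the lowest 25% of peaks by score they had 14.8% and 14.3%, with the others at 18.2% or more. After merging of peaks closer than 1000 bp they had 35.0% and 37.6%, with the others at 41.2% or more. The first place of 2R among the large arms was less steady, since 3L was above it at 10 kb (9.47% against 9.28%) and after merging (51.3% against 48.0%).

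On each large arm the solitary peaks had the lower median score. On 2L it was 138.1 for members and 224.6 for the others, and this difference of -86.5 was the largest of the 6 arms. On 3R the medians were 135.7 and 207.3, on 3L 145.1 and 208.2, on X 148.4 and 188.8, and on 2R 178.3 and 209.5. Chromosome 4 went the other way by a small amount, at 243.5 for its 11 members and 239.9 for the others. Its members were also the wider set, with median widths of 1540 and 1498.5 bp. On each large arm members were the narrower set, with median widths of 1549 to 1636.5 bp against 1813 to 1937 bp. Scores by arm were not compared within width classes. The scores of members on X ran from 14.38 to 501.38, with an upper quartile of 237.5. The 4 large autosomal arms held 403 members, which scored 13.77 to 489.12, and their median was 151.5 and their upper quartile 258.5. The members of X and of these arms thus overlap almost fully, and the highest member of all lay on X. The number of peaks within 100 kb had a median of 12 on 2L and 2R, 13 on 3L and 3R, 15 on X and 9 on chromosome 4. X was the only arm where members had the higher median, at 15 against 14 for the other peaks.

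**Figure D4:**
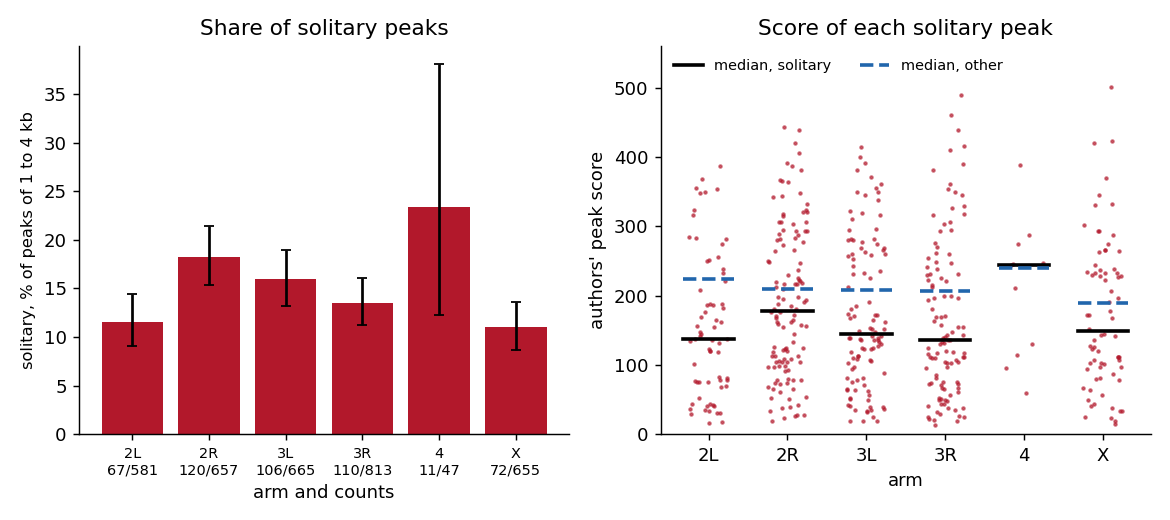
Left, percent of the peaks of 1 to 4 kb on each arm that were solitary, with exact 95% intervals and the counts below the bars. Right, the authors' score of every solitary peak by arm, with the median of members (black) and of the other peaks of that width (dashed blue). X (11.0%) and 2L (11.5%) have the lowest shares, and the black line lies below the dashed one on every arm other than 4.

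The strongest solitary peaks scored among the top of the arm peaks, below the highest of the others. The first was X:15031602-15033468, 1867 bp wide with a score of 501.38, which lay at the 99.8 percentile of the arm peaks. Its gaps were 51117 and 22735 bp, and its neighbours were narrow peaks of 403 and 390 bp with scores of 71.22 and 13.97. The second was 3R:16676216-16679061, with 2846 bp, a score of 489.12 and a gap of 95346 bp on its right. The third, 3R:538131-540112, scored 460.42 and was 1982 bp wide. The highest member of 2R, 2R:1181518-1183473, scored 443.21, and 2R:12456318-12458806 followed with 438.5 and 3R:17679753-17682006 with 438.15. The last pair stood less than 10 kb from their right neighbours, at 8092 and 8856 bp.

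The remaining 4 of the 10 highest members scored 415.51 to 423.03. They were X:1407031-1409960, X:19414656-19418473, 2R:11417396-11419812 and 3R:22975285-22976814. Of these, the 2R peak had a broad neighbour of 6490 bp with a higher score of 442.17, at a gap of 5790 bp. It was the only 1 of the 10 with a neighbour that outscored it. Of the 10 highest members, 4 were on 3R, 3 on 2R and 3 on X, and none was on 2L, 3L or chromosome 4. The highest member of 3L was 3L:749387-753015, which scored 413.59 over 3629 bp, and that of 2L was 2L:18590835-18593772, with 387.06 and 2938 bp.

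The weakest solitary peaks were narrow. The lowest 5 scored 13.77 to 18.78 and were 1026 to 1376 bp wide. The lowest, 3R:14205700-14206782, scored 13.77 between neighbours that scored 84.95 and 116.96. X:15393496-15394673 scored 14.38. The next pair were consecutive on 2L, at 2L:15476898-15478023 with 16.18 and 2L:15424044-15425419 with 17.35, and had only 2 and 3 other peaks within 100 kb. The last, 3L:4306468-4307493, scored 18.78 in crowded surroundings with 21 other peaks within 100 kb. Weak members thus occurred in both sparse and crowded stretches.

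The most isolated members did not share a level of score. The first was 2R:17860583-17862918, with gaps of 98842 and 91422 bp, 2336 bp wide, scoring 292.95. The second, 3L:17232042-17235273, had gaps of 91304 and 95612 bp, was 3232 bp wide and scored 296.26. X:3466310-3467653 followed with a score of 144.32 and gaps of 84347 and 96880 bp. The highest member of chromosome 4, 4:806696-808300, scored 387.98 between gaps of 90106 and 77482 bp. The fifth, 3R:15149753-15151905, scored 103.45 between neighbours of 229.26 and 186.89. Apart from the first, which had 6 other peaks within 100 kb, these had 2 to 4.

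The widest members also varied in score. The widest, 3L:19809437-19813426, was 3990 bp with a score of 371.15, and its right neighbour, 11514 bp away, scored 533.29. The others were 3R:11874259-11878210 with 3952 bp and a score of 248.66, 3R:23460472-23464418 with 3947 bp and 315.55, 3R:25548841-25552765 with 3925 bp and 199.26, and X:9086621-9090453 with 3833 bp and 172.25. The last of these scored below both neighbours, at 335.73 and 287.58.

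On chromosome 4 the 11 members scored 59.96 to 387.98, with a median of 243.5. Their widths ran from 1039 to 2604 bp. Some were consecutive. The members at 4:522430-524958 and 4:577047-579650 scored 129.66 and 245.53 across a gap of 52088 bp, and 4:715551-716589, 4:806696-808300 and 4:885783-887697 scored 59.96, 387.98 and 273.73 in a row. The highest member of the chromosome thus stood directly beside the lowest, with 90106 bp between them.

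Peaks just inside and just outside each limit of the rule are given for reference. At the lower width limit the narrowest member, 3R:14410263-14411267, was 1005 bp wide and scored 104.26, while X:11809913-11810911, just under the limit, scored 35.9. At the upper limit 3R:27550711-27554741, at 4031 bp, scored 291.94 beside the 371.15 of the widest member. At the lower gap limit X:17793705-17795154, with a gap of 5024 bp, scored 120.85, and 2R:18783788-18785792, with 4994 bp, scored 113.53. At the upper gap limit 3R:16561322-16562803, with 99629 bp, scored 85.35, and 3L:2980988-2982268, with 101927 bp, scored 68.34.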

How the data were processed

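The authors deposited 1 peak list for 2 ChIP and 2 input libraries. Its score column holds the authors' score per peak, and its positions are on FlyBase release 5, per the file headers. The submitters' processing notes name BDGP5 as the build and list MACS2, BWA and the CASAVA versions 1.7.0.2 and 1.7.0.3. Their order, settings and threshold, and how libraries were combined, are not given in the sources used here. A threshold sets which weak peaks exist, and weak peaks set the gaps.

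Width was end minus start plus 1, and a gap was the number of bases between neighbours. Other peaks within 100 kb were counted by midpoint, either side, and this window passed the first or last peak of an arm for 3 members. Shares of pairs counted ties equally to both sides. A single value given for all width classes together is the mean over the classes, weighted by their numbers of members. Peaks were named by position by rule: the 10 highest and 5 lowest scores, the 5 widest, the 5 with the largest smaller gap, the highest of each arm and those nearest each limit. The members and comparisons were chosen with earlier results of these data known. The gene table at hand is for release 6, so no gene or sequence was assigned. Values were computed with pandas 2.3.3, numpy 2.4.6 and, for intervals, scipy 1.17.1 under Python 3.11.15, and the counting was checked on simulated peaks. No test was run. Alternatives changed the gap and width limits, the threshold, merging, the comparison set, the distance window and the arms.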

Additional observations from a re-analysis of the deposited data

How the results depend on the processing

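No paired analysis was possible because no peak of the list is tied to a library, so no replicate could be left out either. Of 62 alternatives 38 stayed within 1.5 times the number of members or moved by less than the exact binomial error of the members' median (15.2 for score, 75 bp for width, 1 for the number of peaks), 20 moved further and 4 changed direction. Of the 62, 9 were chosen after seeing the data. The number of members, 486, was 289 with gaps of at least 10 kb and 773 after merging peaks closer than 1000 bp, and 608 to 715 under the rest. Merging also lowered the number of peaks of 1 to 4 kb on every arm. The solitary share of these was then 35.0% (X) to 51.3% (3L), against 11.0% (X) to 23.4% (chromosome 4) as deposited. The score difference of -53.5 became -36.8 without the lowest 25% of peaks by score and 3 without the lowest 50%, where the members' median was 231.2 against 228.2. It was -26.1 and -12.8 after merging at 500 and 1000 bp, -37.7 with gaps taken to peaks of 500 bp or wider, -13.9 within width classes and 0 against peaks with no gap under 5 kb. Within width classes it was -6.49, -21.6 and 19.9 against peaks with 2, 1 and 0 gaps under 5 kb. The width difference of -271.5 bp became -117.5 without the lowest 50%, and -129 and -126.5 after merging at 500 and 1000 bp. The difference of -2 in the number of peaks within 100 kb was -1 without 2R, -3 without X, -3 within 50 kb, 1 from 10 to 100 kb, 1 from 50 to 100 kb and 0 for groups. Against others with both gaps under 100 kb it was -3, and 0 both from 10 to 100 kb and for groups. The causes were not tested. Depth is unknown, and places without a peak may carry the mark below the authors' threshold or where reads were not mapped.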

Other observations

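The same width and gap limits were also met outside the arms. On the 6 heterochromatic scaffolds, 3 of 28 peaks of 1 to 4 kb met them, 1 on 3LHet and 2 on 3RHet, with scores of 105.07 to 140.77. On the unplaced collections U and Uextra 7 of 22 did, with scores of 58.6 to 256.52. Gaps on these sequences do not measure distances on a chromosome where pieces were joined without a known order.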
